A study of Mus musculus with 8 samples.

Results

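Cholesterol synthesis was followed through 8 genes, Hmgcs1, Idi1, Fdft1, Sqle, Lss, Cyp51, Dhcr7 and Insig1, which were the rows carrying these symbols among 24421 genes in every library. All 8 were present and all 8 passed the filter on low values, together with 12348 genes in all. Although the set is also named for cholesterol uptake, 7 of the 8 are enzymes of synthesis and Insig1 is a regulator, so that uptake genes were read from a separate list. RNA was sequenced from primary osteoblastic cells, the bone-forming precursors obtained by digesting the calvaria (skull caps) of newborn mice of 0 to 3 days. WT libraries came from littermates and Def6-/- libraries from mice lacking Def6, a guanine nucleotide exchange factor, and backcrossed to C57/BL6. Each genotype was taken at day 0, after expansion in medium with 10% FBS, and at day 12 of osteogenic medium, in which the same serum share is joined by ascorbic acid at 100 µg/ml and by β-glycerophosphate at 10 mM. Every one of the 4 groups had 2 libraries, described as biological replicates without saying which mice were pooled, so the p-values measure the spread between these libraries.

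Cells make cholesterol from acetyl-CoA through mevalonate and the isoprenoid units to squalene, which is closed into lanosterol and then trimmed to cholesterol. The genes of this route share a transcription factor, SREBP2 (Srebf2), which is held in the endoplasmic reticulum by SCAP and the INSIG proteins while sterol is plentiful and is cut free when sterol falls. Excess sterol activates the LXR receptors and the genes for cholesterol export. Inherited loss of DHCR7 causes the Smith-Lemli-Opitz syndrome, whose malformations include those of the skeleton.

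The 8 genes lie on 6 chromosomes of GRCm38 (mm10) and are not neighbours, in the GENCODE annotation. Hmgcs1 (chr13:119690379-119708260, plus strand) and Idi1 (chr13:8885501-8892451, plus strand) share a chromosome, as do Cyp51 (chr5:4081145-4104746, minus strand) and Insig1 (chr5:28071363-28078662, plus strand). The others are Fdft1 (chr14:63145150-63179578, minus strand), Sqle (chr15:59315077-59331192, plus strand), Lss (chr10:76531588-76557138, plus strand) and Dhcr7 (chr7:143823145-143848410, plus strand). Promoters of 6 of the 8 were found in RefSeq (GRCm38.p6, 250 bases before to 50 bases after a start site), while Fdft1 and Sqle had no entry. The stretches before the start of 3 genes are shown because they stand for the 3 behaviours described below, a gene with little change (Hmgcs1), the gene that fell (Cyp51) and the sterol sensor (Insig1). Capitals mark TCACNCCAC, an SRE-like motif, CCAAT, the site of NF-Y, and GGGCGG, the GC box of Sp1, on either strand. Both factors are known partners of SREBP2.
Hmgcs1, chr13:119690101-119690350, plus strand: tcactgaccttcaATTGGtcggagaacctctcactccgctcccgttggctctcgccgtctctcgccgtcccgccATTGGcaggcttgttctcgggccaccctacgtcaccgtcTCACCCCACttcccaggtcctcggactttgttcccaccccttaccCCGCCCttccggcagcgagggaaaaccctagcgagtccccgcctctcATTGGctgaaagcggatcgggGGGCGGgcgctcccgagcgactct
Cyp51, chr5:4104747-4104947, minus strand: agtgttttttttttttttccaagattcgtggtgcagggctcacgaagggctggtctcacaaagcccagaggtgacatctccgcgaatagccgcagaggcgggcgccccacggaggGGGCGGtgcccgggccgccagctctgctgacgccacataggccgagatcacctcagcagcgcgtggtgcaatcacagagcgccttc
Insig1, chr5:28071162-28071362, plus strand: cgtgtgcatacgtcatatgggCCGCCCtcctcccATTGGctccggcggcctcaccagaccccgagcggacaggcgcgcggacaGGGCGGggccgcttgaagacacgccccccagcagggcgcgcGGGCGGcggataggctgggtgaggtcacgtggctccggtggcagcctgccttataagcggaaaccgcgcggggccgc
The SRE-like letters were found in 1 of the 6 genes, Hmgcs1, 137 bases before the start, and in 1.44% of all 27025 genes with an entry. Only these exact letters were searched, so their absence does not show that a gene lacks a sterol element. CCAAT and GGGCGG each occurred in 6 of 6, against 41.1% and 38.2% of all genes. All genes with an entry were counted, expressed or not, so the gap was not tested against expressed genes. A gene counted if any of its start sites had a match, and the CCAAT of Dhcr7 lay at its start site 3 only. The CCAAT of Cyp51 lies 29 bases before the RefSeq start, outside the stretch printed, which ends where the longer GENCODE gene begins. CACGTG, an E-box, occurred in Dhcr7 and Insig1 and in 8.09% of all genes.

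Between 2414856 and 3482837 reads per library fell on genes, which was 28.8% to 35.3% of all reads. Def6 had 112 to 186 reads in the WT libraries and 0 to 2 in the Def6-/- libraries, so the genotypes matched the labels. Osteoblast markers (11 genes) summed to between 36477 and 51977 normalized CPM at day 0 and to between 95354 and 133465 at day 12, with 1 or 2 of the 11 at 0 reads in each day 0 library and none at day 12. Most of each sum came from Col1a1, Col1a2 and Sparc. Of the 11, Spp1 alone had a log2 change below 0 (-0.76 in WT and -0.10 in Def6-/- cells). Macrophage markers (15 genes) also rose, from a sum of 184 to 410.4 normalized CPM at day 0 to 3178 to 6319.7 at day 12. WT day 0 replicate 1 stood apart, with the largest share of reads mapping to more than 1 place (34.9%, against 21.4% to 26.6% in the other 7). Its 14 cell cycle genes summed to 454 normalized CPM, against 1005 in WT day 0 replicate 2, and to between 502 and 819 at day 0 in Def6-/- cells. Since the RNA is bulk, fewer cells of a type and less RNA per cell cannot be told apart.

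All 8 genes were expressed in all 8 libraries, at levels that differed more between genes than between conditions. Levels are given as normalized CPM, reads per 1000000 reads on genes after TMM scaling, and between genes per kb of annotated exon, where the exons of all isoforms are joined. Hmgcs1, the cytosolic HMG-CoA synthase, was highest at 31.4 ± 3.22 per kb (SD over 8 libraries), and Cyp51, the lanosterol 14α-demethylase, followed at 27.2 ± 7.34. This order held in the mean over the libraries and not in each group, since at WT day 0 Cyp51 (39.3 and 32.0) was above Hmgcs1 (33.2 and 29.99) in both replicates. Insig1 stood at 16.5 ± 2.86 per kb, Sqle at 15.7 ± 1.96 and Fdft1 at 10.98 ± 1.94. Dhcr7 (4.71 ± 1.23 per kb), Lss (3.22 ± 0.41) and Idi1 (1.29 ± 0.25) were lowest per kb. The place of Lss depends on its joined exons of 10.8 kb, and which isoforms were transcribed was not tested. In normalized CPM, without division by length, Lss (26.0 to 39.9) overlapped both Dhcr7 (15.4 to 38.2) and Fdft1 (36.0 to 56.7). From Hmgcs1 down to Fdft1 the range of each gene over the libraries overlapped that of the next, and so did Dhcr7 and Lss. No overlap was seen between Fdft1 (8.53 or more) and Dhcr7 (6.56 or less), nor between Lss (2.41 or more) and Idi1 (1.82 or less). The range within a gene was widest for Dhcr7, whose highest library was 2.48-fold above its lowest, and for Cyp51 (2.09-fold), and narrowest for Hmgcs1 (1.41-fold) and Sqle (1.43-fold).

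Counting can lower some of these levels. Of the 50-base windows in the transcripts of Idi1, 25.3% also occur in those of other genes, among them Gm48574, which is antisense to its start, and the strand setting of the counting is not given in the sources used here. For Fdft1 this share was 26.5%, with its overlapping neighbour Ctsb and with Gm6781, and for Hmgcs1 11.6%. It was 2.77% or less for Cyp51, Insig1, Lss, Dhcr7 and Sqle. Idi1 rested on 8 to 17 reads per library, whereas every other gene had at least 39, so differences of Idi1 are the least precise.

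**Figure D1:**
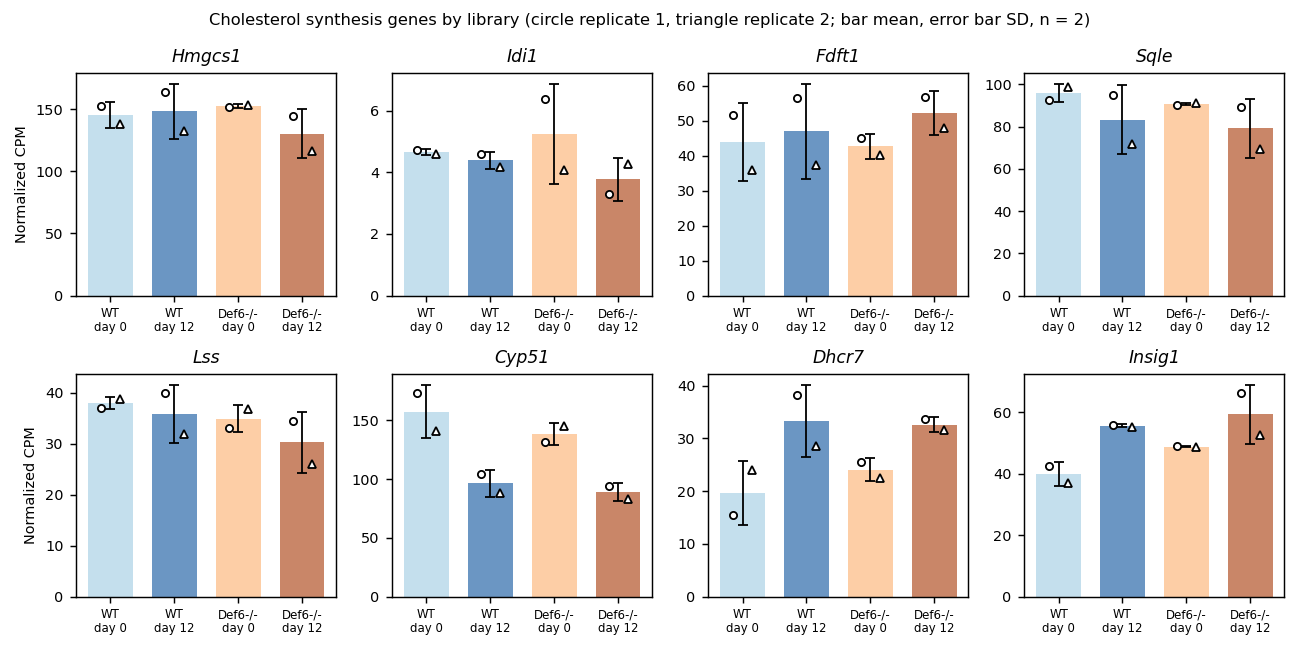
Normalized CPM (reads per 1000000 reads on genes after TMM scaling) of the 8 genes in each of the 8 libraries, with a panel per gene and its own axis from 0. Bars are group means, error bars the SD of 2 libraries, circles replicate 1 and triangles replicate 2. Cyp51 is lower at day 12 in both genotypes, from 132 to 174 down to 83.3 to 104, while Hmgcs1 stays between 117 and 164.

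The first question was how the pathway stood after 12 days of osteogenic medium, compared within each genotype. The steps of the pathway did not move together. In WT cells Cyp51 fell, Dhcr7 and Insig1 were above their day 0 level without passing the adjusted threshold, and the 5 others changed by 0.21 or less on the log2 scale. With limma across all genes tested and Benjamini-Hochberg adjustment, 1 of the 8 was called lower at an adjusted p under 0.05 in WT cells, where 18.3% of all 12348 genes were called and 5.63% were called lower. For Def6-/- cells, 0 of the 8 were called (16.8% of all genes), with 1 of the 8 (Cyp51) at an unadjusted p under 0.05 and 0 called by edgeR or DESeq2 on recovered reads. The median change of the 8 was -0.023 in WT and -0.21 in Def6-/- cells, beside medians over all genes tested of -0.00095 and 0.0098. By the criterion the study used, an unadjusted p under 0.05 and more than 1.2-fold, 3 of the 8 passed in WT cells (32.5% of all genes) and 1 in Def6-/- cells (30.1%).

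Hmgcs1 was at 152 and 138 normalized CPM in the WT libraries at day 0 and at 164 and 133 at day 12. The Def6-/- values were 152 and 154 at day 0 and 144 and 117 at day 12. The WT groups overlapped, and in Def6-/- cells both day 12 libraries lay below both day 0 libraries. Such a separation downwards was seen in 32.4% of all genes tested in Def6-/- cells, and upwards in 35.2%. The log2 change was 0.026 ± 0.19 (SE) in WT and -0.23 ± 0.19 in Def6-/- cells.

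Idi1, the isopentenyl diphosphate isomerase, supplies the isoprenoid units that are joined into squalene. It had 4.74 and 4.59 normalized CPM in WT at day 0 and 4.59 and 4.19 at day 12. Def6-/- day 0 gave 6.40 and 4.09, and Def6-/- day 12 gave 3.28 and 4.27. With so few reads these values cannot be ordered, and the 95% interval of its change ran from -0.82 to 0.68 in WT cells on the log2 scale and from -1.12 to 0.38 in Def6-/- cells.

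Fdft1, squalene synthase, commits the pathway to sterols. Its WT libraries gave 51.7 and 36.0 normalized CPM at day 0 and 56.5 and 37.3 at day 12, and its Def6-/- libraries 45.1 and 40.2 at day 0 and 56.7 and 47.8 at day 12. In WT cells the gap between replicates was wider than the gap between days. The log2 change was 0.087 ± 0.27 (SE) in WT and 0.28 ± 0.27 in Def6-/- cells, where both day 12 libraries lay above both day 0 libraries.

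Sqle, squalene epoxidase, adds the oxygen that the later ring closure needs and is a control point of the pathway. It gave 92.7 and 98.9 normalized CPM in WT at day 0, and 95.01 and 71.6 at day 12. Its Def6-/- values were 90.3 and 90.9 at day 0, and 89.1 and 69.2 at day 12. Day 0 was even across the 4 libraries, and at day 12 replicate 2 of each genotype was lower. Its log2 change was -0.21 ± 0.21 (SE) in WT and -0.20 ± 0.21 in Def6-/- cells.

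Lss, which closes squalene epoxide into lanosterol, followed the same outline as Sqle. Its WT values were 37.1 and 38.9 normalized CPM at day 0 and 39.9 and 31.8 at day 12, and its Def6-/- values 33.1 and 36.8 at day 0 and 34.5 and 26.0 at day 12. Day 0 and day 12 overlapped in both genotypes. The log2 change was -0.089 ± 0.23 (SE) in WT cells and -0.21 ± 0.23 in Def6-/- cells.

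Cyp51 removes the 14α-methyl group of lanosterol. It was at 174 and 141 normalized CPM in WT at day 0 and at 104 and 88.4 at day 12. Def6-/- cells stood at 132 and 145, and after 12 days at 94.4 and 83.3. All 4 day 12 libraries lay below all 4 day 0 libraries. The log2 change was -0.70 ± 0.19 (SE) in WT cells (limma, adjusted p = 0.0335) and -0.63 ± 0.19 in Def6-/- cells (limma, adjusted p = 0.051). The fall was therefore called in WT cells and just missed the threshold in Def6-/- cells, and the difference between both changes was 0.065 ± 0.27 (interaction, limma, unadjusted p = 0.814).

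Dhcr7 catalyses the last step to cholesterol in the Kandutsch-Russell branch. Its WT libraries gave 15.4 and 24.03 normalized CPM at day 0, and 38.2 and 28.5 at day 12. Its Def6-/- libraries gave 25.6 and 22.5 at day 0, and 33.7 and 31.6 at day 12. All 4 day 12 libraries lay above all 4 day 0 libraries, the reverse of Cyp51. The lowest value, on 39 reads, was WT day 0 replicate 1, the library that stood apart. The log2 change was 0.75 ± 0.27 (SE, limma, adjusted p = 0.0928) in WT and 0.43 ± 0.27 (limma, adjusted p = 0.338) in Def6-/- cells.

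Insig1, which retains the SCAP and SREBP complex in the endoplasmic reticulum, is itself an SREBP2 target. It gave 42.6 and 37.1 normalized CPM in WT at day 0 and 56.0 and 55.3 at day 12. Its level in Def6-/- cells was 48.9 and 48.7 at day 0 and 66.1 and 52.5 at day 12. Again the 4 day 12 libraries lay above the 4 day 0 libraries. The log2 change was 0.47 ± 0.20 (SE, limma, adjusted p = 0.134) in WT and 0.27 ± 0.20 (limma, adjusted p = 0.418) in Def6-/- cells.

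Because the changes of the genotypes lay close together, day 12 was also compared with day 0 as an average over genotypes in the same fit, a comparison chosen after seeing the data. Cyp51 fell by 0.67 ± 0.13 (SE) on the log2 scale, with a 95% interval of -0.97 to -0.36 (limma, adjusted p = 0.00524). Dhcr7 rose by 0.59 ± 0.19, with an interval of 0.15 to 1.02 (limma, adjusted p = 0.0448), and Insig1 differed by 0.37 ± 0.14 (limma, adjusted p = 0.0733). These 2 calls among 8 genes stand beside 32.0% of all genes called, 19.3% upwards and 12.7% downwards. By an unadjusted p and 1.2-fold 3 of the 8 passed, Insig1 being the third, beside 43.0% of all genes. For Cyp51, Dhcr7 and Insig1 the exact permutation test over 4 against 4 libraries gave p = 0.0286, the smallest it can give. Their full separation by day fixes this value, so it adds no evidence. The separation of the 4 day 12 from the 4 day 0 libraries upwards was seen in 21.9% of all genes tested, and downwards in 16.8%. The 5 other genes had intervals that held 0, from -0.75 to 0.31 for Idi1, -0.54 to 0.12 for Sqle, -0.52 to 0.21 for Lss, -0.41 to 0.20 for Hmgcs1 and -0.24 to 0.61 for Fdft1.

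In every fit that leaves out a library, the group left with 1 library is assumed to vary like the others. The share of all genes called then moves too, from 18.3% in WT cells to 25.1% without WT day 0 replicate 1, 46.1% without WT day 0 replicate 2, and 7.18% and 8.02% without WT day 12 replicate 1 and 2. Without WT day 0 replicate 1 and 2 it was 34.8% and 35.1% in Def6-/- cells and 43.8% and 52.4% in the average. The fall of Cyp51 in the average passed in all 15 alternatives, with adjusted p between 0.000102 and 0.0349. Within WT cells it passed in 7 of 16 alternatives, and among the libraries left out in turn it passed only without WT day 0 replicate 1 or 2 (adjusted p = 0.0275 and 0.00127). Without WT day 12 replicate 1 or 2 its adjusted p was 0.106 and 0.234, and without a Def6-/- library it lay between 0.0668 and 0.0675, while its log2 change stayed between -0.85 and -0.55. Within Def6-/- cells it passed in 4 of 16, those being the fit of the 4 Def6-/- libraries alone (adjusted p = 0.00575), the replicate block and the fits without WT day 0 replicate 1 or 2 (adjusted p = 0.00311 and 0.00298). Dhcr7 passed in the average in 6 of 15 alternatives, with a log2 change between 0.43 and 0.74. It passed without WT day 0 replicate 1 or 2 (adjusted p = 0.0391 and 0.00203). It was lost when any of the 6 others was left out, with adjusted p from 0.0677 without WT day 12 replicate 2 to 0.173 without WT day 12 replicate 1. Beside these shares, within WT cells Dhcr7 gained a call without WT day 0 replicate 2 (adjusted p = 0.00447) and Insig1 without WT day 0 replicate 1 (adjusted p = 0.0445). In the average Insig1 gained one without WT day 0 replicate 1 or 2 (adjusted p = 0.0149 and 0.042).

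**Figure D2:**
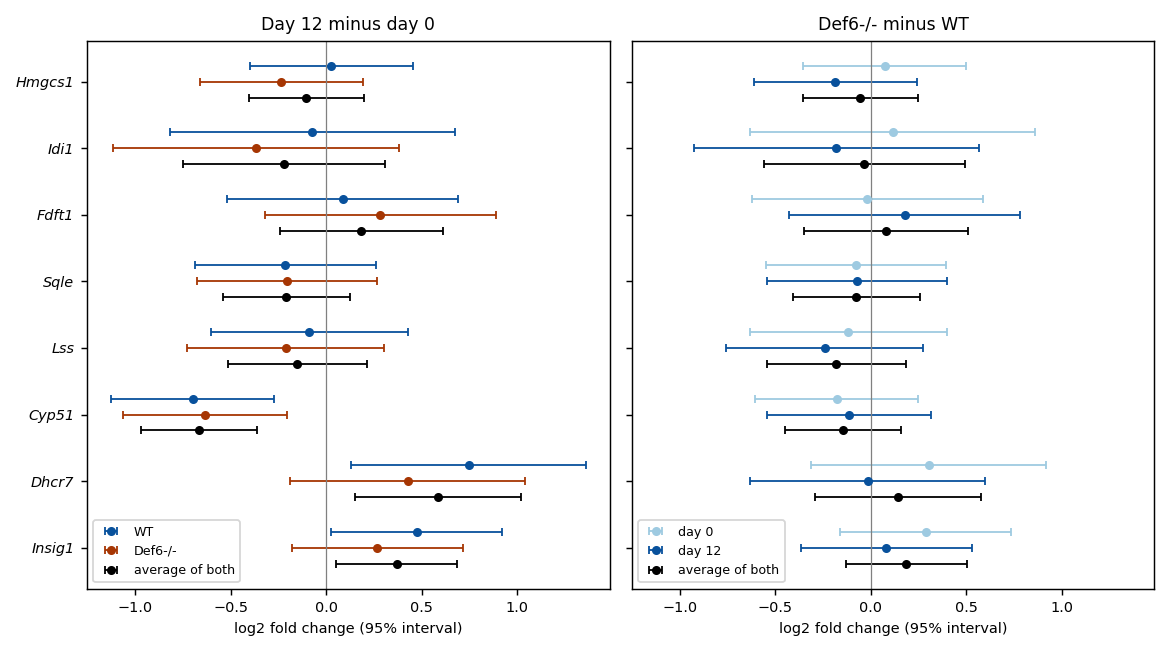
Log2 fold changes (x axis) with 95% intervals from limma for the 8 genes, on the left for day 12 minus day 0 and on the right for Def6-/- minus WT, with colours for the groups compared and black for their average. On the left the black intervals of Cyp51 (-0.97 to -0.36), Dhcr7 (0.15 to 1.02) and Insig1 (0.054 to 0.69) leave out 0. On the right every interval holds 0.

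The second question was whether the loss of Def6 went with a different level of these genes. No difference between genotypes was detectable for any of the 8. At day 0, day 12 and in the average over days, 0 of 8 had an adjusted p under 0.05, beside 0.0081% of all genes tested, which is Def6 itself. At an unadjusted p under 0.05 there were also 0 of 8 in each, by limma and by edgeR and DESeq2 on recovered reads. By the criterion of an unadjusted p and 1.2-fold, 2.3% of all genes passed at day 0, 1.4% at day 12 and 2.24% in the average.

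At day 0 the 8 differences, Def6-/- minus WT, ran from -0.18 (Cyp51) to 0.30 (Dhcr7) on the log2 scale, with 4 above and 4 below 0. Insig1 was higher in both Def6-/- libraries (48.9 and 48.7 against 42.6 and 37.1 normalized CPM), with a difference of 0.29 and a 95% interval of -0.16 to 0.74. Non-overlap of this kind upwards was seen in 10.9% of all genes tested. Lss and Sqle were lower in both Def6-/- libraries, a pattern seen in 11.7% of all genes, by 0.12 and 0.079 on the log2 scale. The largest difference, that of Dhcr7, had an interval of -0.31 to 0.92 and overlapping libraries. It was -0.0025 without WT day 0 replicate 1, while without WT day 0 replicate 2 Dhcr7 passed the criterion of an unadjusted p and 1.2-fold, as did 37.1% of all genes in that fit.

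At day 12 the differences ran from -0.24 (Lss) to 0.18 (Fdft1), and the libraries of both genotypes overlapped for 8 of 8, while they separated upwards in 16.8% and downwards in 15.9% of all genes tested. The widest interval was that of Idi1, -0.93 to 0.57, and the other 7 lay between -0.76 and 0.78. Averaged over days, the intervals were -0.45 to 0.16 for Cyp51, -0.36 to 0.25 for Hmgcs1, -0.41 to 0.26 for Sqle, -0.55 to 0.18 for Lss, -0.35 to 0.51 for Fdft1, -0.29 to 0.58 for Dhcr7, -0.13 to 0.50 for Insig1 and -0.56 to 0.50 for Idi1. A difference of 2-fold thus lay outside each of these 8 intervals. Between the changes over time in Def6-/- and WT cells, 0 of the 8 differed (interaction, limma, unadjusted p from 0.355 to 0.977, with 0.0% of all genes called after adjustment and 1.12% at an unadjusted p and 1.2-fold), and edgeR and DESeq2 also gave 0.

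The scaling of the libraries bears on these small values. With CPM as deposited, without TMM factors, the median of all genes at day 0 moved from -0.019 to 0.099 on the log2 scale, and the split of genes passing at an unadjusted p and 1.2-fold moved from 122 higher and 162 lower to 138 higher and 53 lower. Under that scaling the day 0 signs of Fdft1, Sqle and Lss changed, none of which had passed a test under either.

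Although the members did not share a change over time, some of them rose and fell together across libraries. As a description over 8 libraries that share day, genotype and depth, Pearson's r of log2 levels was 0.90 for Sqle and Lss, 0.83 for Hmgcs1 and Lss and 0.79 for Hmgcs1 and Sqle. Cyp51 ran with Sqle (0.73) and Lss (0.63). Dhcr7 and Insig1 ran with each other (0.70) and against Cyp51 (-0.84 and -0.74). Fdft1 and Idi1 had weaker links, with Idi1 limited by its reads and the largest value of Fdft1 being 0.55, with Insig1.

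At day 12 the replicates of each genotype differed in a shared direction. In WT cells 8 of 8 genes were lower in replicate 2 than in replicate 1, and in Def6-/- cells 7 of 8 were, Idi1 being the exception. Over all genes tested 49.99% and 50.8% were lower in replicate 2. The median gap of the 8 was -0.31 in WT and -0.27 in Def6-/- cells on the log2 scale, beside 0 and -0.005 over all genes. Replicate 2 had 0.754 (WT) and 0.776 (Def6-/-) of the Sqle level of replicate 1, and 0.798 and 0.755 of its Lss level. At day 0 the genes split 5 lower and 3 higher in WT and 4 and 4 in Def6-/- cells. Reads on genes also differed between the day 12 replicates, 3482837 and 2526057 in WT and 2528092 and 2414856 in Def6-/- cells, as did the share of reads mapping to more than 1 place (21.6% and 26.6%, 21.4% and 23.1%). The macrophage marker sums were also lower in replicate 2, with 6319.7 and 3178 normalized CPM in WT and 3939 and 3427 in Def6-/- cells. Their part in the result was not tested.

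The 10 other genes whose pattern was most like the mean of the 8 centred log2 levels had r from 0.83 to 0.92 over the 8 libraries. These r were picked as the highest of all genes compared, so their size is no evidence of a link, and none was tested. The 10 were Ndel1, Ch25h, Rhog, Scube1, Cbr2, Pcdh20, Tfrc, Syt13, Ctage5 and Brf2. No enzyme of cholesterol synthesis was among them, while Ch25h makes 25-hydroxycholesterol, which holds SREBP2 back, on 8 to 23 reads per library. The mean that they follow varied little, from -0.15 in Def6-/- day 12 replicate 2 to 0.17 in WT day 12 replicate 1.

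**Figure D3:**
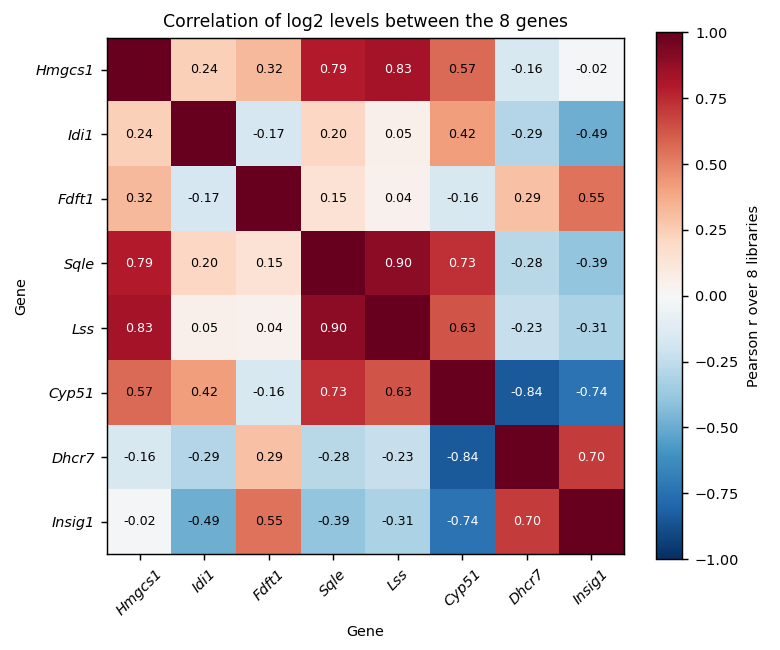
Pearson's r of log2 levels over 8 libraries for each pair of the 8 genes, which are listed on both axes, with red for positive and blue for negative values. Hmgcs1, Sqle and Lss form a block with r from 0.79 to 0.90, and Cyp51 runs against Dhcr7 (-0.84) and Insig1 (-0.74).

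Few calls were made among 13 other synthesis enzymes. All 13 were tested, with Erg28 listed in the files under its older symbol 0610007P14Rik. After adjustment 0 of 13 were called in either genotype by limma, edgeR or DESeq2, with 2 of 13 below and 0 above at an unadjusted p and 1.2-fold in WT, and 1 below and 1 above in Def6-/- cells. Over all genes, limma called 18.3% in WT and 16.8% in Def6-/- cells, and 32.5% and 30.1% passed at an unadjusted p and 1.2-fold. The median change of the 13 was -0.15 in WT and 0.25 in Def6-/- cells. In the average over genotypes 1 of 13 fell and none rose, beside 12.7% of all genes called lower and 19.3% higher. Lbr, a sterol reductase of the nuclear envelope, was at 33.2 and 48.1 normalized CPM in WT and 37.2 and 46.3 in Def6-/- cells at day 0. At day 12 it was at 25.8 and 20.1 in WT and at 24.6 and 25.6 in Def6-/- cells, and the 4 day 12 libraries lay below the 4 day 0 libraries. In the average it fell by 0.74 ± 0.18 (SE, limma, adjusted p = 0.0135) on the log2 scale. Msmo1, the C4-methyl sterol oxidase that acts soon after Cyp51, had -0.74 ± 0.31 in WT (limma, adjusted p = 0.138) and -0.31 ± 0.31 in Def6-/- cells. Nsdhl, of the same list, went the other way, with 0.37 ± 0.27 in WT and 0.66 ± 0.27 in Def6-/- cells (limma, adjusted p = 0.134). The call of Lbr was lost without Def6-/- day 0 replicate 2, Def6-/- day 12 replicate 1 or WT day 12 replicate 2 (adjusted p = 0.0605, 0.0551 and 0.0674). The count of 1 became 5 of 13 without WT day 0 replicate 1 and 4 of 13 without WT day 0 replicate 2, where 43.8% and 52.4% of all genes were called.

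Of 10 genes that control SREBP activity, all tested, 0 were called in WT (limma, edgeR and DESeq2, with 1 at an unadjusted p and 1.2-fold) and 1, Insig2, in Def6-/- cells. Over all genes, limma called 18.3% in WT and 16.8% in Def6-/- cells, and 32.5% passed at an unadjusted p and 1.2-fold in WT. In the average over genotypes Mbtps1 and Insig2 were called higher, beside 19.3% of all genes. Their log2 changes were 0.42 ± 0.12 and 0.44 ± 0.13 (SE, limma, adjusted p = 0.0231 and 0.0293). Srebf2 itself, the factor behind the 8 genes, gave 110.5 and 201 normalized CPM in the WT libraries at day 0, against 166 and 138 at day 12. The Def6-/- libraries showed 178 and 193 at day 0 and 168 and 153 at day 12. Its low value in WT day 0 replicate 1 set the spread, and its log2 change was 0.024 ± 0.27 (SE) in WT and -0.20 ± 0.27 in Def6-/- cells. Srebf1, which drives fatty acid synthesis, changed by 0.12 ± 0.17 and 0.079 ± 0.17. Insig2, the isoform that is not an SREBP target in most cells, was at 37.6 and 39.2 normalized CPM in Def6-/- cells at day 0 and at 70.6 and 63.2 at day 12. WT cells had 51.7 and 46.3 at day 0, followed by 53.4 and 51.9. It rose by 0.78 ± 0.18 in Def6-/- cells (limma, adjusted p = 0.0197) and differed by 0.10 ± 0.18 in WT cells. The interaction had an unadjusted p = 0.0284 and an adjusted p = 0.9998 (limma), so a difference between the genotypes was not shown after adjustment. The call in Def6-/- cells was 0 under DESeq2, with CPM as deposited, and without any 1 of the Def6-/- or WT day 12 libraries.

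Mylip, a ubiquitin ligase of lipoprotein receptors and an LXR target, rose from 22.9 and 42.8 to 104 in both libraries, in normalized CPM, in WT. It also rose in Def6-/- cells from 34.2 and 46.7 to 108 and 110, with log2 changes of 1.70 ± 0.29 (limma, adjusted p = 0.00434) and 1.43 ± 0.29 (adjusted p = 0.01001). The call in Def6-/- cells was lost without Def6-/- day 0 replicate 1 or either Def6-/- day 12 library (adjusted p from 0.0717 to 0.1002).

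Of 11 genes for uptake and transport, all tested, 3 rose and 0 fell in WT cells, while 2 rose and 1 fell in Def6-/- cells, beside 18.3% and 16.8% of all genes called. Their median change was 0.36 in WT and 0.35 in Def6-/- cells. Lipa, the lysosomal acid lipase that frees cholesterol from lipoprotein, rose by 2.04 ± 0.20 and 1.63 ± 0.20 (limma, adjusted p = 0.000337 and 0.00102). Npc1, which carries that cholesterol out of the lysosome, rose by 0.93 ± 0.25 in WT (limma, adjusted p = 0.0319) and had 0.34 ± 0.25 in Def6-/- cells. Lrp8, a lipoprotein receptor, fell by 1.38 ± 0.39 in Def6-/- cells (limma, adjusted p = 0.0434) and had -0.86 ± 0.39 in WT cells. The calls of Npc1 and Lrp8 were each lost without any 1 of 6 libraries, all except those of WT day 0 (adjusted p from 0.0538 to 0.225 and from 0.0638 to 0.232), while those of Lipa held without each of the 8. Stard4, an SREBP2 target that moves sterol within the cell, had 0.18 ± 0.48 and 0.24 ± 0.48. The count of 3 ran from 2 to 7 over the alternatives in WT (7 and 5 without WT day 0 replicate 1 and 2, where 25.1% and 46.1% of all genes were called) and from 1 to 5 in Def6-/- cells (5 without WT day 0 replicate 1 or 2, where 34.8% and 35.1% were called, and 1 without Def6-/- day 0 replicate 1 or either Def6-/- day 12 library).

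Several export genes rose. Of 8 genes for efflux and storage, all tested, 5 rose and 0 fell in WT cells, and 4 rose and 0 fell in Def6-/- cells, with a median change of 1.26 and 1.24, beside 18.3% and 16.8% of all genes called. The average over genotypes called 32.0% of all genes. In the average over genotypes 5 of 8 were called in each of the 15 alternatives. The 5 in WT cells were 3 without WT day 12 replicate 1 or any Def6-/- library, and the 4 in Def6-/- cells were 2, 3, 1 and 2 without Def6-/- day 0 replicates 1 and 2 and Def6-/- day 12 replicates 1 and 2. Apoe, the apolipoprotein that accepts exported cholesterol, rose from 60.8 and 45.6 to 1967 and 1310.0 normalized CPM in WT, and from 37.6 and 55.2 to 1494 and 1125 in Def6-/- cells. Abca1, the main sterol exporter, was at 32.4 and 85.1 normalized CPM in WT at day 0, and at 146 and 143 at day 12. It rose by 1.44 ± 0.37 (SE, limma, adjusted p = 0.0291) on the log2 scale in WT and had 1.09 ± 0.37 (adjusted p = 0.0843) in Def6-/- cells. The WT rise was 0.75 without WT day 0 replicate 1 and 2.12 without WT day 0 replicate 2, and its call was lost without any 1 of the other 6 libraries (adjusted p from 0.0532 to 0.152). Abcg1, a partner exporter, rose by 3.66 ± 0.51 and 2.62 ± 0.51, and Nr1h3, the LXRα receptor, by 2.63 ± 0.41 and 2.30 ± 0.41, both from 3.1 or fewer normalized CPM at day 0. In Def6-/- cells the call of Abcg1 was lost without Def6-/- day 0 replicate 1 (adjusted p = 0.0777) or either day 12 library (0.0758 and 0.0515), and that of Nr1h3 without Def6-/- day 0 replicate 1 (0.056) or day 12 replicate 1 (0.0524). Nr1h2, the LXRβ receptor, had 0.12 ± 0.20 and 0.0085 ± 0.20. Among the 4 oxysterol enzymes tested of 5 listed, Cyp27a1 and Cyp7b1 rose in both genotypes and Cyp39a1 in Def6-/- cells. These rises start near the floor, with 1 read of Cyp27a1 in each day 0 library, 1 to 5 of Cyp7b1 and 4 to 8 of Cyp39a1. At day 12 they had 5 to 13, 13 to 24 and 13 to 26 reads per library. All 3 were called in the average in each of the 15 alternatives, while the 2 in WT cells were 1 without either WT day 12 library and the 3 in Def6-/- cells were 1 without Def6-/- day 12 replicate 1 and 0 without any of the other Def6-/- libraries. Ch25h had -0.031 ± 0.36 and -0.14 ± 0.36.

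Beside these rises, 13 of 15 macrophage markers rose in WT and 12 of 15 in Def6-/- cells, with median log2 changes of 3.42 and 3.17. Cx3cr1 went the other way without a call, at -0.79 in WT and -0.98 in Def6-/- cells. Each count of called markers in this paragraph stands beside 18.3% of all genes called in WT and 16.8% in Def6-/- cells. At day 0 the macrophage markers were not absent, with at most 1 of 15 at 0 reads in a library. Apoe, Abcg1, Nr1h3 and Lipa are also well expressed in macrophages, and the part of those cells in the rise was not tested. Cyp51 and Lbr fell while most macrophage markers rose, and the part of macrophages in that fall was not tested either. Of 14 cell cycle genes 3 fell in each genotype and none rose, with sums of 393 to 483 normalized CPM at day 12 against 454 (WT day 0 replicate 1) to 1005 at day 0, and their part in the fall of Cyp51 and Lbr was not tested. Adipocyte markers (13 genes, 8 tested) were higher at day 12, with 7 of 8 called in WT and 8 of 8 in Def6-/- cells, and a sum of 80.9 to 104 normalized CPM at day 0 against 578 to 718 at day 12. Most of each adipocyte sum came from Lpl, Cebpa and Cd36. Of the 8 chondrocyte markers 7 were tested, with 3 higher (Col10a1, Col11a2 and Comp) and 1 lower (Col2a1) in WT cells. In Def6-/- cells these 4 moved the same way, Col9a1 rose and Acan fell, and the list summed to 2051 to 3923 normalized CPM at day 0 and to 1463 to 1882 at day 12. Endothelial and muscle markers stayed near 0, at sums of 18.8 normalized CPM or less for 8 and 14.3 or less for 9 genes, with Tek and Tnnt1 higher at day 12 in WT cells. Tnnt1 had 0 to 2 reads per library at day 0. Acta1, also a muscle marker, went the other way without a call in either genotype, at -1.38 in WT and -1.97 in Def6-/- cells. In the average over genotypes it was called lower (limma, adjusted p = 0.0297), beside 12.7% of all genes.

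**Figure D4:**
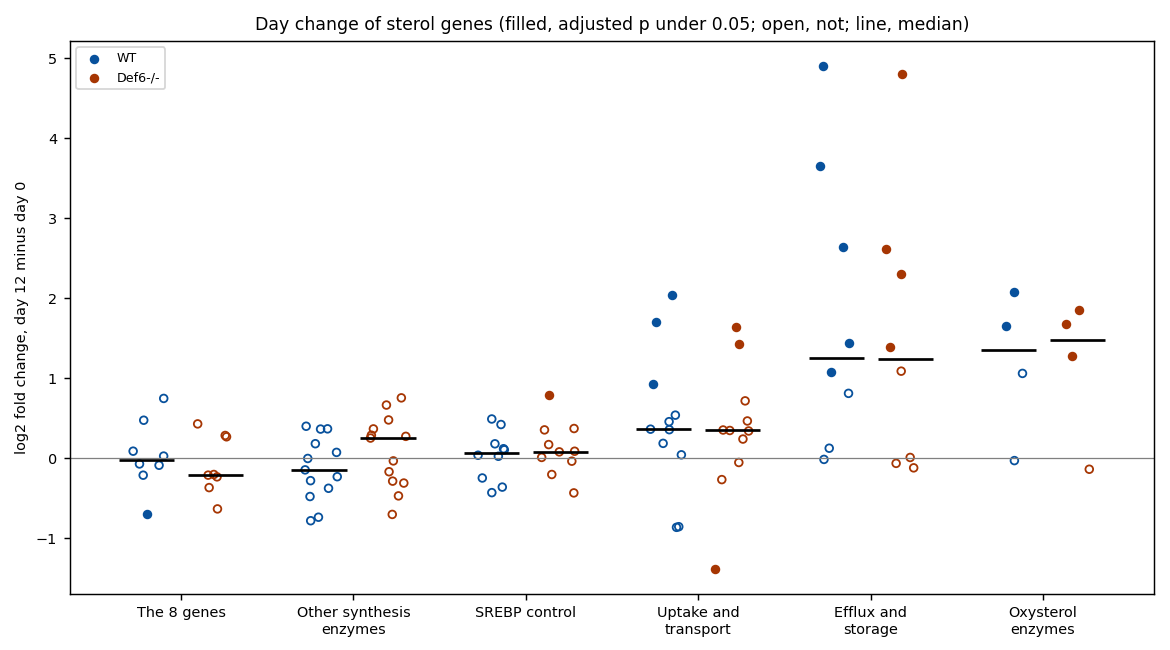
Log2 fold change from day 0 to day 12 of each tested gene in 6 lists of sterol genes, with WT in blue and Def6-/- in orange, filled points for an adjusted p under 0.05 and a black line at the median of each list. The 8 genes and the other synthesis enzymes lie between -0.78 and 0.75, whereas efflux genes reach 4.90 in WT and 4.80 in Def6-/- cells (Apoe).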

How the data were processed

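Poly-A RNA libraries were sequenced by the authors on an Illumina instrument, aligned to mm10 with HISAT2 and counted per gene with HTSeq, and the deposited values are CPM made with edgeR, relative to all reads including those outside genes. Versions and the annotation are not given in the sources used here. A count test does not suit CPM as the main test. CPM was therefore rescaled to reads on genes with TMM factors and tested as log2(value + 1) with limma 3.58.1 (lmFit, eBayes with a trend, two-sided, R 4.3.3) in a fit of 4 group means over 8 libraries, which understates changes of low genes. A gene was tested where 1 group or more had a mean of 1 CPM or higher as deposited. Whole reads were recovered from the CPM steps for edgeR 4.0.16 and DESeq2 1.42.0 as alternatives, except for 49 values in 9 genes, none of them among the 8. Of these 9 genes 1, Ptprc, is on a list used here, that of the 15 macrophage markers. In WT day 12 replicate 1 the reads were recovered in the same way, with a step close to a power of 10. The tests were checked on simulated data.

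The 8 genes, the other lists and the tests were chosen with earlier results of these data known, and the lists are no independent evidence. Named genes were the 8, 7 fixed genes of sterol balance, up to 3 of each sterol or lipid list in each direction with the smallest p in a day or day 12 comparison, and the 10 genes most like the mean of the 8. Some genes of the lists are not reported here and were left out of the list counts. Alternatives were CPM as deposited, pseudocounts of 0.1 and 5, no low filter, only the 2 groups compared, edgeR, DESeq2, the replicate number as a block and leaving out each library. Sequences are from RefSeq.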

Additional observations from a re-analysis of the deposited data

How the results depend on the processing

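With 2 libraries per group and 39 to 571 reads on most of the 8 genes, changes under 2-fold were near the limit of what could be called, and Idi1 (8 to 17 reads) was beyond it. Of 872 values of the 8 genes under alternatives, 825 kept their direction and 47 changed sign, 3 of them by more than 1 SE and none where a call had been made, while 18 lost and 8 gained a call. In WT cells 1 of the 8 was called in the report, but 0 with CPM as deposited, with the 2 groups alone and with DESeq2, and 0 to 2 when a library was left out. In Def6-/- cells 0 were called, but 1 (Cyp51) with the 2 groups alone and 1 with the replicate block, and 0 to 1 when a library was left out. In the average over genotypes, added after seeing the data, 2 were called, but 1 with CPM as deposited, 1 without a low filter, 1 with DESeq2 and 1 to 3 when a library was left out. By an unadjusted p and 1.2-fold, the 3 genes of WT cells became 1 with CPM as deposited and 1 with the 2 groups alone, the 1 of Def6-/- cells became 2 with the 2 groups alone, and the 3 of the average became 1 with CPM as deposited. Leaving out a library gave 1 to 2 in WT cells, 0 to 1 in Def6-/- cells, 0 to 1 between genotypes at day 0 and 1 to 3 in the average. The cause was not tested. Leaving out a library also moved the log2 change of Fdft1 in WT cells between -0.21 and 0.38, its difference between genotypes at day 12 between -0.12 and 0.47, and the day 0 difference of Dhcr7 between -0.0025 and 0.61. Replicate numbers are shared by name only, and the libraries of each comparison form 2 pairs. Deviations of same-numbered libraries correlated at 0.088 (WT), 0.152 (Def6-/-), 0.327 (day 0) and 0.0369 (day 12), and the block raised the genes called from 2260 to 2553 in WT and from 2076 to 2281 in Def6-/- cells. No other call of the 8 changed with the block.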

Other observations

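Of 15 genes of fatty acid synthesis, 14 were tested. In WT cells Acss2 (acetyl-CoA synthetase), Lpin1 (lipin, a phosphatidate phosphatase) and Scd2 (a stearoyl-CoA desaturase) rose by 1.37 ± 0.30, 1.01 ± 0.23 and 1.16 ± 0.27 (SE, log2; limma, adjusted p = 0.0136, 0.01697 and 0.0203), while Aacs, which activates acetoacetate for sterol synthesis, fell by 0.91 ± 0.22 (adjusted p = 0.0203). In Def6-/- cells Lpin1 and Scd2 rose by 0.88 ± 0.23 and 1.05 ± 0.27 (adjusted p = 0.0311 and 0.0314), and Aacs had -0.69 ± 0.22 (adjusted p = 0.0607). Fasn, fatty acid synthase, had -0.30 ± 0.27 and -0.44 ± 0.27. These calls are 4 of 14 in WT and 2 of 14 in Def6-/- cells, beside 18.3% and 16.8% of all genes. The count of 4 in WT cells was 10 without WT day 0 replicate 2 and 8 without WT day 0 replicate 1 (46.1% and 25.1% of all genes called in these fits) and 0 without either WT day 12 library, and the count of 2 in Def6-/- cells was 9 without either WT day 0 library (34.8% and 35.1% of all genes) and 0 without any of the Def6-/- or WT day 12 libraries. Of 11 genes of the isoprenoid branch, which use the intermediates before squalene for prenylation and other products, 0 were called in either genotype by limma, with 1 below in each at an unadjusted p and 1.2-fold. These were different genes, Rabggtb in WT and Icmt in Def6-/- cells, and Icmt had 0.19 ± 0.17 in WT cells. Over all genes, limma called 18.3% in WT and 16.8% in Def6-/- cells, and 32.5% and 30.1% passed at an unadjusted p and 1.2-fold. By edgeR and by DESeq2 1 was called in WT and 0 in Def6-/- cells. In the average 1, Rabggtb (a subunit of the Rab geranylgeranyl transferase), fell, and this count was 0 without either WT day 12 library, Def6-/- day 0 replicate 1 or either Def6-/- day 12 library, and 2 without either WT day 0 library. Over all genes, 12.7% were called lower in the average. The median change of the 11 was -0.40 in WT and -0.17 in Def6-/- cells.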
